A study of Homo sapiens with 9 samples.

Results

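The genes described here are those of glycolysis, of lactate handling and of the cellular response to low oxygen. Of 39 genes named for these roles, 18 have a probeset with a gene name in the platform's annotation and were measured, out of 14884 measured genes in all. They were 7 glycolytic enzymes (HK1, HK2, GPI, TPI1, GAPDH, PGK1 and PGAM1), 2 lactate dehydrogenase genes (LDHA and LDHB), 3 genes of oxygen sensing (EPAS1, EGLN1 and EGLN3) and 6 genes induced by hypoxia-inducible factors (NDRG1, BNIP3, BNIP3L, ANKRD37, KDM3A and DDIT4). The other 21 were not analysed here, among them HIF1A, CA9, the glucose transporters SLC2A1 and SLC2A3, PDK1, both PFKFB genes and both P4HA genes. Each measured gene had 1 probeset, and gene identifiers and accessions found no further one.

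RNA came from ZR-75-1, a human breast cancer cell line that carries the estrogen receptor, harvested 48 h after transfection in ordinary serum medium. The groups were cells given 50 nM of a miR-150-5p mimic in a lipid reagent, cells given 50 nM of a nonspecific negative control RNA in the same reagent, and mock cells given the reagent without RNA, with 3 arrays each. All 3 groups thus carry the lipid treatment, only the first 2 carry an RNA, and none was labelled as kept in low oxygen. Triplicate transfections are stated, without saying whether they were independent cultures, so the spread behind each p-value is that between these 9 samples and may be technical.

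Glycolysis splits glucose into pyruvate and yields ATP without oxygen, and lactate dehydrogenase turns pyruvate into lactate so that the pathway can go on. Hypoxia-inducible factors (HIF) are transcription factors whose alpha subunits are marked for destruction by the EGLN prolyl hydroxylases while oxygen is present. When oxygen is scarce the alpha subunits persist, bind a short core motif in DNA, and induce most glycolytic genes together with genes of mitophagy, pH control and chromatin demethylation. Tumour cells often run this program at high level, and in breast cancer it is a known mark of poorly perfused tissue.

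With the mimic, none of the 18 genes passed the test over all genes. The clearest separations were in oxygen sensing, where EGLN1 and EPAS1 lay lower on every mimic array than on any control array, and in KDM3A, a HIF-induced gene, which lay higher on every mimic array. The 7 glycolytic enzymes had log2 changes between -0.18 and 0.082 against the negative control and between -0.19 and 0.10 against mock. Of the 18 genes, limma's test called 0 against the negative control, where it called 0.551% of all genes, and 0 against mock, where it called 0.302% (adjusted p under 0.05). At an unadjusted p under 0.05 there were 3 of 18 in each comparison (16.7%), 1 higher and 2 lower, beside 12.6% of all genes against the negative control (6.18% higher and 6.39% lower) and 10.7% against mock (5.87% higher and 4.84% lower). The arrays of 3 of 18 genes did not overlap with the negative control, beside 16.4% of all genes, and those of 4 of 18 did not overlap with mock, beside 12.7%. The shares among these genes were thus near those of all genes or somewhat above them, in a set of only 18 genes. The 2 comparisons use the same mimic arrays and are not independent.

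EGLN1, the main prolyl hydroxylase that marks HIF alpha subunits in normal oxygen, had log2 intensities of 6.06, 6.19 and 6.12 on the mimic arrays, against 6.50, 6.58 and 6.68 on the negative control arrays and 6.45, 6.29 and 6.73 on the mock arrays. All mimic arrays lay below all 6 control arrays, and the mock arrays were the most scattered. Its log2 change was -0.47 ± 0.11 (SE, n = 3 per group; 95% interval from -0.71 to -0.22) against the negative control, which is 1.38-fold lower, with limma's adjusted p = 0.105. Against mock it was -0.37 ± 0.11 (interval from -0.61 to -0.12) with an adjusted p = 0.258. Without mock replicate 3, the brightest mock array, the change against mock was -0.25, and that against the negative control then passed (adjusted p = 0.0439).

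EPAS1 encodes the alpha subunit of HIF-2, one of the oxygen-regulated HIF factors. It is described in full because its values separated the groups, a choice made after they were seen. It had log2 intensities of 7.11, 6.79 and 6.86 on the mimic arrays, against 7.49, 7.16 and 7.52 on the negative control arrays and 7.49, 7.26 and 7.26 on the mock arrays. The groups did not overlap, but mimic replicate 1 lay within 0.05 of the lowest control array, negative control replicate 2. The log2 change was -0.47 ± 0.12 (SE, n = 3 per group; interval from -0.75 to -0.19) against the negative control with limma's adjusted p = 0.153. Against mock it was -0.41 ± 0.12 with an adjusted p = 0.260.

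EGLN3, a prolyl hydroxylase that is itself a strong HIF target, had the widest spread within the mimic group. Its log2 intensities were 4.94, 4.62 and 4.39 on the mimic arrays, against 4.70, 4.65 and 4.66 on the negative control arrays and 4.58, 4.65 and 4.64 on the mock arrays. The mimic arrays held both the highest and the lowest of the 9 values, and the log2 change was -0.016 ± 0.12 against the negative control and 0.032 ± 0.12 against mock (SE, n = 3 per group). EGLN3 lay below the median of all genes (5.44), where the table cannot separate a low level from background.

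The start windows of EGLN1 and EPAS1, from 250 bases before to 50 after the transcript start, are shown because these are the oxygen-sensing genes whose arrays separated. Capitals mark each ACGTG or GCGTG, the HIF core motif, on either strand, so the reverse strand appears as CACGT or CACGC. Sequences are RefSeq's of GRCh38.p14, at chr1:231422238-231422537 on the minus strand and chr2:46297157-46297456 on the plus strand, written 5′ to 3′ along the gene.
EGLN1: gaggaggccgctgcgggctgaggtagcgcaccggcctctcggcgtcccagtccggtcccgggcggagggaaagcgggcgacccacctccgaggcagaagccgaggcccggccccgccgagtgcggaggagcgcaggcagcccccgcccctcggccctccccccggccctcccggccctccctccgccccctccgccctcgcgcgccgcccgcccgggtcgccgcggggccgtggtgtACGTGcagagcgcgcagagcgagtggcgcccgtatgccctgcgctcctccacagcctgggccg
EPAS1: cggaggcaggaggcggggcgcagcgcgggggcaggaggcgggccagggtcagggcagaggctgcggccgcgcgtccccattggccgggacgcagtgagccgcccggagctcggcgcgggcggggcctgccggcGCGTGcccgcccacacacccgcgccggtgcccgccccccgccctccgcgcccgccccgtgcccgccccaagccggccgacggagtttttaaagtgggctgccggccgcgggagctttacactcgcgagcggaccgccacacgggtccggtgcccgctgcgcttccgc
Each holds 1 motif, with A in the first place in EGLN1 and G in EPAS1. It starts at -13 from the transcript start in EGLN1 and at -117 in EPAS1.

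**Figure D1:**
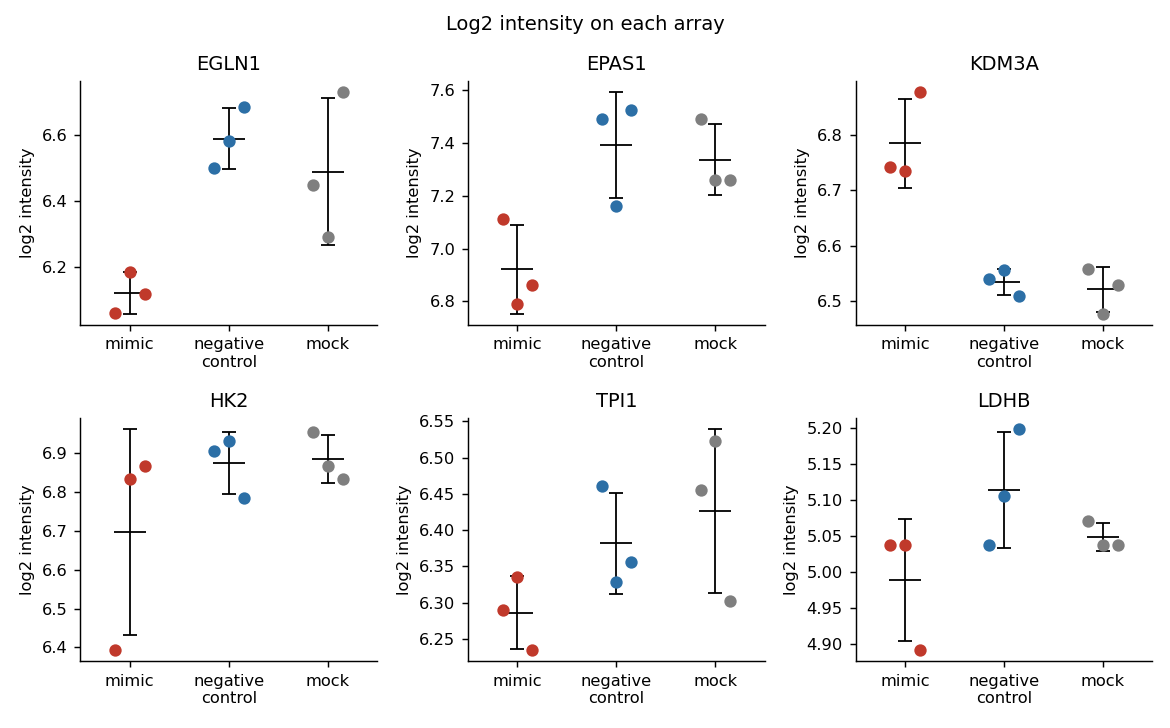
Log2 intensity (y axis) of 6 genes on each array, with mimic, negative control and mock groups from left to right; points are arrays and black bars the mean ± SD (n = 3). EGLN1 and EPAS1 lie lower and KDM3A higher on all 3 mimic arrays than on all 6 control arrays. HK2 and TPI1 overlap with both control groups, and LDHB shares its highest mimic value with both.

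KDM3A, a histone demethylase that removes methyl marks from lysine 9 of histone H3 and is a known HIF target, was the most separated of the 6 HIF-induced genes. It had log2 intensities of 6.74, 6.73 and 6.88 on the mimic arrays, against 6.54, 6.56 and 6.51 on the negative control arrays and 6.56, 6.48 and 6.53 on the mock arrays. The 6 control arrays lay within 0.08 of each other, and the lowest mimic array was 0.18 above the highest of them. The log2 change was 0.25 ± 0.067 (SE, n = 3 per group; interval from 0.10 to 0.40) against the negative control, which is 1.19-fold higher, with limma's adjusted p = 0.158. Against mock it was 0.26 ± 0.067 with an adjusted p = 0.187.

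The arrays of the other 5 HIF-induced genes overlapped between the mimic and each control group, and their difference from KDM3A was not tested. DDIT4, an inhibitor of mTOR signalling induced by hypoxia and other stresses, had log2 intensities of 6.63, 7.01 and 6.93 on the mimic arrays, against 7.01, 6.90 and 6.90 on the negative control arrays and 7.06, 7.16 and 6.97 on the mock arrays. Mimic replicate 1 was the lowest of the 9 arrays, and the groups overlapped. Its log2 change was -0.081 ± 0.10 against the negative control and -0.21 ± 0.10 against mock (adjusted p = 0.791 and 0.514). Without mimic replicate 1 the changes of DDIT4 were 0.031 and -0.098.

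BNIP3 and BNIP3L, receptors that hand mitochondria over to autophagy, had log2 changes of -0.025 ± 0.094 and -0.077 ± 0.083 against the negative control, and of 0.055 and -0.033 against mock. NDRG1, a stress and differentiation gene, had -0.046 ± 0.13 and 0.0093 ± 0.13. The interval of NDRG1 against the negative control reached from -0.33 to 0.24, so a small change either way was within the error. ANKRD37, an ankyrin-repeat gene known as a HIF target, read the same log2 value of 4.32 on 7 of 9 arrays, with 4.38 on mimic replicate 2 and 4.23 on negative control replicate 1. Such a value carries little information on ANKRD37, which lay below the median of all genes, as did NDRG1. The median log2 change of the 6 genes was -0.035 against the negative control and 0.014 against mock, beside 0.011 and 0.012 over all genes. It was 0.033 against the negative control without mimic replicate 2. Against mock it was -0.017 without mimic replicate 3 and -0.051 without mock replicate 2, and between 0.055 and 0.061 without mimic replicate 2 or mock replicate 1.

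The windows of KDM3A, whose arrays separated, and of ANKRD37, a known HIF target, are shown as examples of HIF-induced genes. ANKRD37's intensities cannot bear on its motifs, for the reason given above. Both windows are RefSeq's of GRCh38.p14, at chr2:86441121-86441420 and chr4:185396591-185396890, both on the plus strand, with capitals as above.
KDM3A: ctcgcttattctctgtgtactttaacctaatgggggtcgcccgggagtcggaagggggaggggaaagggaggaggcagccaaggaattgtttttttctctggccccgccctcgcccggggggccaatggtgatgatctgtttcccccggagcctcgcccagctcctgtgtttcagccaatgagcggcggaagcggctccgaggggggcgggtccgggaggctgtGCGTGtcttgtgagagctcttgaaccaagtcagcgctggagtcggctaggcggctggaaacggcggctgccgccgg
ANKRD37: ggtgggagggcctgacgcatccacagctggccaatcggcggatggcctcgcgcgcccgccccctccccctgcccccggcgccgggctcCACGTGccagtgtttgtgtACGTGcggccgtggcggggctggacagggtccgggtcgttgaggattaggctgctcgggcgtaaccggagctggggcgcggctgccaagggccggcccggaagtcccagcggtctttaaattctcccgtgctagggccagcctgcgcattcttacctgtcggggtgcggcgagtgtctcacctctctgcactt
ANKRD37 holds 2 motif sites, the first of which, CACGTG, reads as the motif on both strands and was counted once. KDM3A holds 1, at -26 from the transcript start.

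The glycolytic enzymes are given in the order of the pathway. HK1 and HK2, the hexokinases that trap glucose in the cell, differed in sign: HK1 had a log2 change of 0.082 ± 0.073 and HK2 of -0.18 ± 0.12 against the negative control (SE, n = 3 per group), and neither passed (adjusted p = 0.689 and 0.589). HK2, the form most induced in tumours, had log2 intensities of 6.39, 6.83 and 6.87 on the mimic arrays, against 6.91, 6.93 and 6.78 on the negative control arrays and 6.95, 6.87 and 6.83 on the mock arrays. Only mimic replicate 1 stood apart, 0.39 below the next lowest array. Without it the log2 change of HK2 was -0.024 against the negative control and -0.034 against mock, compared with -0.19 ± 0.12 against mock over all arrays.

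GPI, which interconverts glucose and fructose phosphates, had log2 intensities of 11.04, 11.08 and 10.92 on the mimic arrays, against 11.11, 11.04 and 11.09 on the negative control arrays and 11.09, 11.14 and 11.15 on the mock arrays. The mimic arrays lay below all mock arrays and overlapped with the negative control, with log2 changes of -0.11 ± 0.067 and -0.068 ± 0.067. GPI was the only glycolytic enzyme whose arrays did not overlap between mimic and mock, where 12.7% of all genes did not.

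TPI1, which interconverts the triose phosphates, had log2 intensities of 6.29, 6.33 and 6.23 on the mimic arrays, against 6.46, 6.33 and 6.36 on the negative control arrays and 6.46, 6.52 and 6.30 on the mock arrays. It overlapped with both controls, with log2 changes of -0.095 ± 0.078 against the negative control and -0.14 ± 0.078 against mock (adjusted p = 0.659 and 0.563). GAPDH, the enzyme that makes the first energy-rich intermediate and a common reference transcript, had log2 intensities of 8.05, 8.13 and 8.07 on the mimic arrays, against 7.99, 8.07 and 8.05 on the negative control arrays and 8.06, 7.97 and 7.99 on the mock arrays. Its log2 change was 0.052 ± 0.064 against the negative control (interval from -0.092 to 0.20) and 0.079 ± 0.064 against mock.

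PGK1, the first ATP-forming enzyme of the pathway, had log2 intensities of 8.61, 8.68 and 8.88 on the mimic arrays, against 8.72, 8.65 and 8.72 on the negative control arrays and an identical 8.72 on all 3 mock arrays. That value was listed on 4 of the 9 arrays, negative control replicate 3 among them, so the mock SD of 0 says little about the spread. The mimic arrays held the lowest and the highest of the 9 values, and the log2 changes were 0.025 ± 0.079 and 0.0046 ± 0.079. PGAM1, the phosphoglycerate mutase, had log2 changes of -0.016 ± 0.13 against the negative control and 0.10 ± 0.13 against mock. Mimic replicate 3, at 8.26, and negative control replicate 2, at 8.21, were its brightest arrays.

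The start window of PGK1 is shown as that of a glycolytic enzyme with several motif sites, of which it holds 4. It is RefSeq's of GRCh38.p14 at chrX:78103998-78104297 on the plus strand, with capitals as above.
PGK1: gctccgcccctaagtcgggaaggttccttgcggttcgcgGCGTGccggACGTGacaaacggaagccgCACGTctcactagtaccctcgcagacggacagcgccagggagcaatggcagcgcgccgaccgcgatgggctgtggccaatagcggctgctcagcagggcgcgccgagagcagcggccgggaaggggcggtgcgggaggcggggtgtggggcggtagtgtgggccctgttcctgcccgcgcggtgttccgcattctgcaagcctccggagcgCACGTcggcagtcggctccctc
Of the 16 measured genes with a start window, 12 held 1 or more core motifs in the window of their outermost start, beside 48.4% of all 27305 genes with a window. For ACGTG alone it was 9 of 16, beside 21.6% of all genes, and for GCGTG alone 8 of 16, beside 36.4%. The set was chosen to hold known HIF targets, so its higher shares may come from that choice and are no test. HK1, TPI1, PGAM1 and EGLN3 held none in these 300 bases. Counting every start, HK1 held the motif in 2 of its 7 windows and TPI1 in 1 of its 2. A match of 5 letters is common and is no evidence of binding, and EPAS1, KDM3A and LDHB held 1 match each, while BNIP3 held 5.

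**Figure D2:**
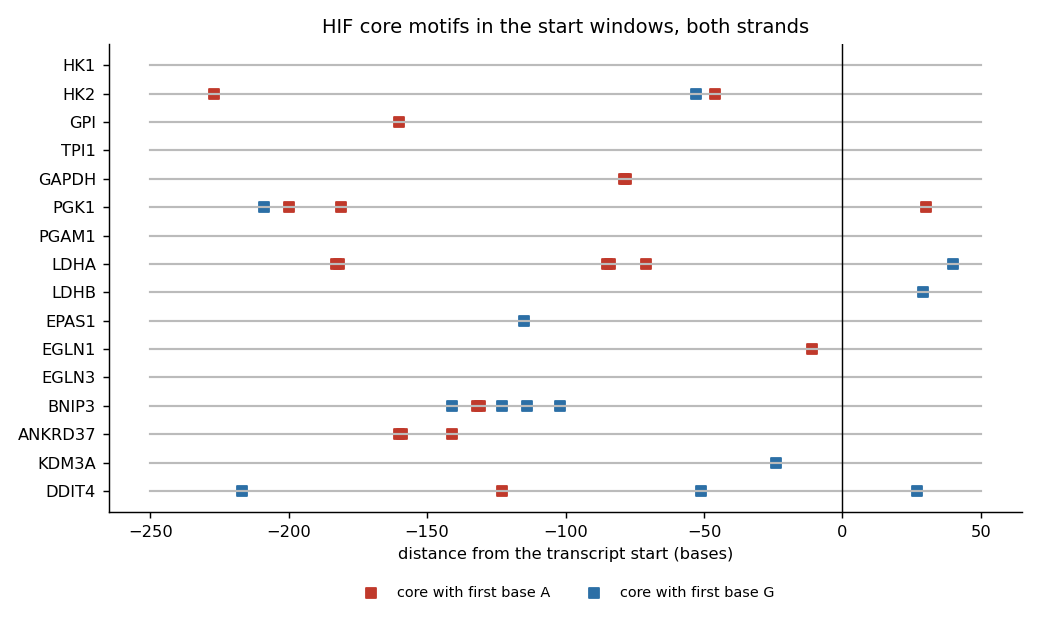
Positions of the HIF core motifs (squares, both strands; red where the core starts with A, blue with G) in the start windows of 16 genes, with distance from the transcript start in bases on the x axis. EGLN1, EPAS1 and KDM3A hold 1 motif each, and PGK1 and LDHA hold 4 sites each.

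The median log2 change of the 7 glycolytic enzymes was -0.016 against the negative control and 0.0046 against mock, beside 0.011 and 0.012 over all genes. Its sign depended on single arrays: against the negative control it was 0.041 without mimic replicate 1, 0.028 without mimic replicate 2 and -0.052 without mimic replicate 3, and against mock 0.062 without mimic replicate 1 and -0.066 without mimic replicate 3. Against the negative control it was also -0.052 without negative control replicate 1 and 0.0042 without negative control replicate 2. The mean of the 7 enzymes lay 0.11 below that of the control arrays on mimic replicate 1 (-0.11), at -0.0035 on mimic replicate 2 and at 0.028 on mimic replicate 3. The control arrays ranged from -0.037 to 0.024.

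LDHA and LDHB encode the subunits of lactate dehydrogenase, of which A is the HIF-induced form that favours lactate. LDHB had log2 intensities of 5.04, 5.04 and 4.89 on the mimic arrays, against 5.04, 5.11 and 5.20 on the negative control arrays and 5.07, 5.04 and 5.04 on the mock arrays. An identical value was listed on 5 of the 9 arrays, and LDHB lay below the median of all genes. Its log2 change was -0.12 ± 0.072 against the negative control and -0.060 ± 0.072 against mock (limma, adjusted p = 0.522 and 0.800). Without mimic replicate 3 the changes of LDHB were -0.076 and -0.011, and without negative control replicate 3 that against the negative control was -0.082. LDHA had log2 intensities of 6.22, 6.28 and 6.21 on the mimic arrays, against 6.28, 6.33 and 6.38 on the negative control arrays and 6.27, 6.21 and 6.30 on the mock arrays. Its log2 change was -0.095 ± 0.065 against the negative control and -0.020 ± 0.065 against mock, and it overlapped with both controls.

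**Figure D3:**
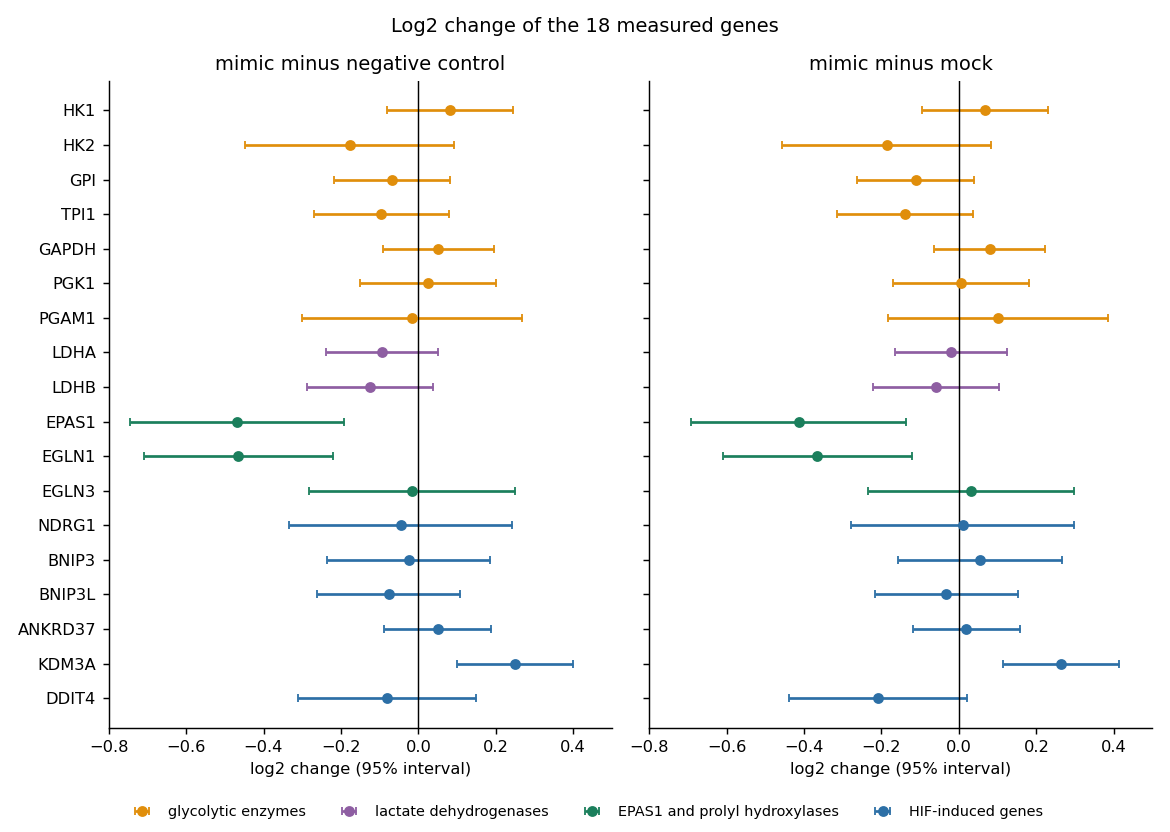
Log2 change (x axis) of the 18 measured genes, mimic minus negative control on the left and mimic minus mock on the right, with bars for the 95% interval from limma. EGLN1, EPAS1 and KDM3A are the genes whose interval leaves out 0 in both panels, and the glycolytic enzymes lie between -0.19 and 0.10.

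Negative control RNA against mock gave the background of transfecting this control RNA, which need not hold for other RNAs. No measured gene passed in limma's test, and 0% of all genes did. At an unadjusted p under 0.05 there were 0 of 18, beside 4.18% of all genes. The log2 changes lay between -0.13 (DDIT4) and 0.12 (PGAM1), with EGLN1 at 0.099 ± 0.11, EPAS1 at 0.054 ± 0.12 and KDM3A at 0.013 ± 0.067. EGLN3 was the gene whose arrays did not overlap here, by 0.0012 between the lowest negative control and the highest mock array, and over all genes 8.1% did not overlap.

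The mimic arrays were also set against the mean of both control groups, which uses all 9 arrays and shares them with the single comparisons. KDM3A had a log2 change of 0.26 ± 0.058 with limma's adjusted p = 0.0834, EGLN1 of -0.42 ± 0.094 with an adjusted p = 0.0836, and EPAS1 of -0.44 ± 0.11 with an adjusted p = 0.103. None of the 18 genes passed, where 1.1% of all genes did, and 3 of 18 had an unadjusted p under 0.05, beside 13.5% of all genes. These 3 lay entirely above or below the 6 control arrays, as 7.68% of all genes did. When the 7442 genes above the median intensity alone were tested, with 14 of the 18 among them, all 3 passed (adjusted p = 0.0292 for KDM3A, 0.0312 for EGLN1 and 0.0401 for EPAS1), beside 348 genes in all.

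**Figure D4:**
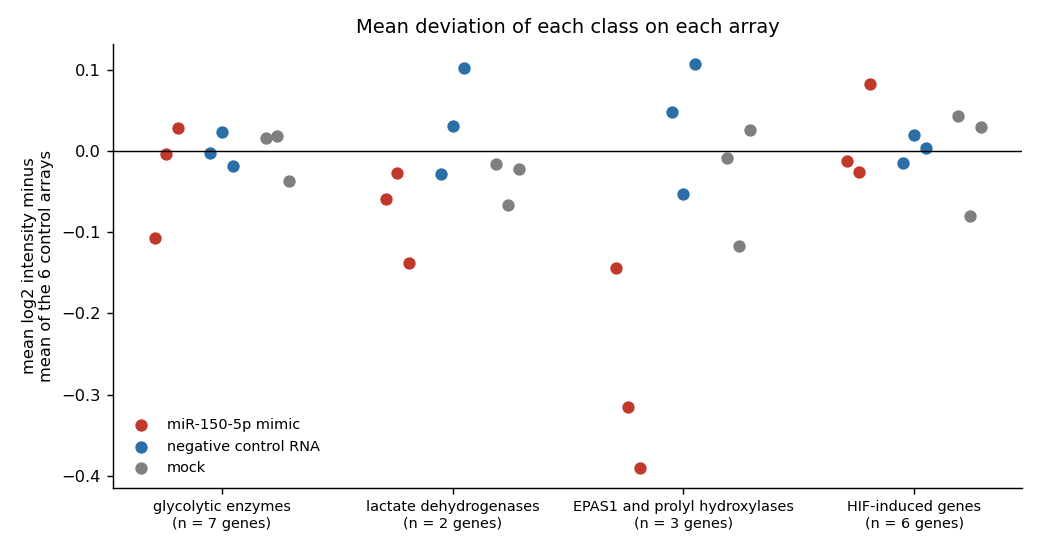
Mean log2 intensity of each class minus the mean of the same genes over the 6 control arrays (y axis) on each array, with mimic, negative control and mock arrays from left to right in each class. The 3 oxygen-sensing genes lie at a mean of -0.14, -0.32 and -0.39 on the mimic arrays. Their single log2 changes against the mean of both controls were -0.42 for EGLN1, -0.44 for EPAS1 and 0.0077 for EGLN3. The mimic arrays of the glycolytic enzymes and of the HIF-induced genes overlap with the control arrays.

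Further genes of these pathways were read from lists of the same kind. Of 25 measured HIF-induced genes outside the set, 1 fell and 0 rose against the negative control, and their median log2 change was 0.032, beside 0.011 over all genes. Over all genes 0.349% fell and 0.202% rose. At an unadjusted p under 0.05 there were 3 higher and 3 lower of the 25 (24%, beside 12.6% of all genes), and the arrays of 8 did not overlap (32%, beside 16.4%). Against mock there were 3 of 25 (12%, beside 10.7%), and against the mean of both controls 5 of 25 (20%, beside 13.5%). INSIG2, a membrane protein that restrains sterol synthesis, is named after its values were seen. It lay above all 6 control arrays on every mimic array, with a log2 change of 0.43 ± 0.11 against the mean of both (limma, adjusted p = 0.104). The gene that fell was CA12, a membrane carbonic anhydrase that regulates pH and is also an estrogen-induced gene. CA12 had log2 intensities of 9.56, 9.48 and 9.28 on the mimic arrays, against 10.06, 9.85 and 9.96 on the negative control arrays and 9.78, 9.85 and 9.88 on the mock arrays. All mimic arrays lay below all controls, and the log2 change of -0.52 ± 0.089 against the negative control had limma's adjusted p = 0.0427. That call was lost when any 1 of the 9 arrays was left out (adjusted p from 0.0519 to 0.168). Against mock CA12 did not pass (-0.40 ± 0.089, adjusted p = 0.144). Its change against the mean of both controls was -0.46 ± 0.077 (adjusted p = 0.0299), a call also lost without any 1 array.

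Of 7 measured oxygen-sensing genes outside the set, 0 passed against the negative control or mock, where 0.551% and 0.302% of all genes did. At an unadjusted p under 0.05 there was 1 of 7 against the negative control (14.3%, beside 12.6% of all genes) and 2 of 7 against mock (28.6%, beside 10.7%). Against the mean of both controls SIAH2 rose, as did 0.504% of all genes, while 0.591% fell. It encodes a ubiquitin ligase known to target EGLN prolyl hydroxylases for degradation, and is also an estrogen-induced gene. SIAH2 had log2 intensities of 9.91, 9.74 and 9.75 on the mimic arrays, against 9.45, 9.40 and 9.41 on the negative control arrays and 9.41, 9.50 and 9.44 on the mock arrays. The lowest mimic array was 0.24 above the highest control array, and the log2 change was 0.37 ± 0.062 (limma, adjusted p = 0.0299). The call was lost when any 1 of the 9 arrays was left out (adjusted p from 0.0540 to 0.0815). The other 6 genes included ARNT, the shared partner of HIF alpha subunits, and the coactivators CREBBP and EP300, and none of them passed.

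Of 14 further glycolysis genes, 14 genes of pyruvate entry and the TCA cycle, and 9 of the pentose phosphate pathway and gluconeogenesis, 0 passed in limma's test against the negative control, mock or the mean of both, where 0.551%, 0.302% and 1.1% of all genes did. At an unadjusted p under 0.05 there were 2, 0 and 2 genes of these lists against the negative control, beside 12.6% of all genes, and 2, 1 and 1 against mock, beside 10.7%. Against the mean of both controls there were 4 of the 14 glycolysis genes (28.6%), 1 of the 14 and 1 of the 9, beside 13.5% of all genes. MINPP1, a phosphatase of inositol and glycerate phosphates, had the lowest p of the further glycolysis genes against the negative control (0.32 ± 0.070, adjusted p = 0.0844). Its log2 change was 0.21 ± 0.061 against the mean of both (adjusted p = 0.165), but only 0.10 ± 0.070 against mock. The negative control arrays of MINPP1 themselves lay below all its mock arrays (-0.22 ± 0.070, limma, adjusted p = 0.976). PCK2, the mitochondrial enzyme that makes phosphoenolpyruvate, had log2 changes of -0.36 ± 0.14 against the negative control and -0.40 ± 0.14 against mock (adjusted p = 0.326 and 0.332). MPC1, a subunit of the mitochondrial pyruvate carrier, had the lowest p of its list against mock (0.18 ± 0.060, adjusted p = 0.314) and DLST, a subunit of the oxoglutarate dehydrogenase complex, that against the negative control (-0.25 ± 0.12, adjusted p = 0.423). PGAM4, a retrotransposed copy of PGAM1, had the lowest p of the further glycolysis genes against mock, 0.45 ± 0.18 (adjusted p = 0.421), with groups that overlapped.

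**Figure D5:**
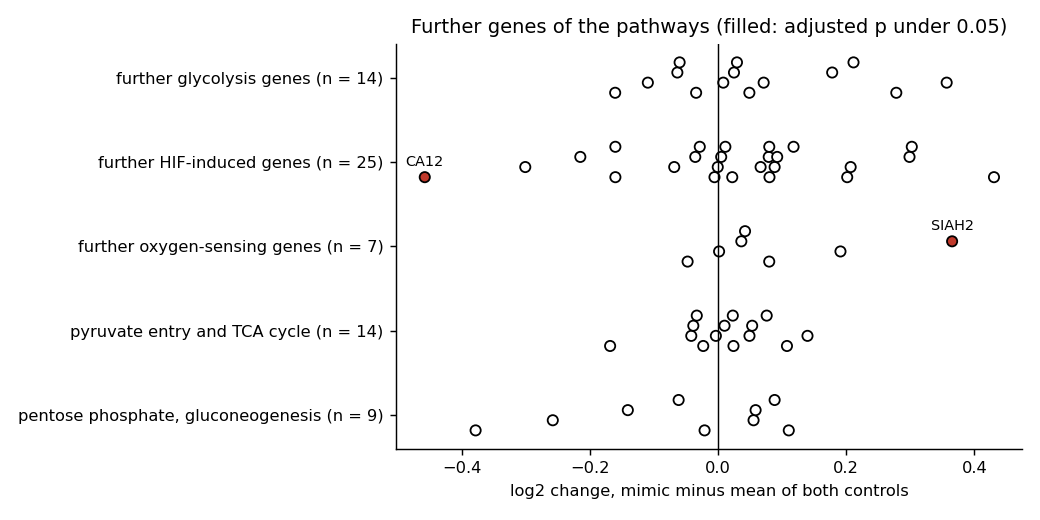
Log2 change of mimic minus the mean of both controls (x axis) for the further genes of 5 lists, 1 point per gene, filled where the adjusted p was under 0.05. CA12 (-0.46) and SIAH2 (0.37) are the filled points.

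Median log2 intensity over all probesets lay between 4.22 and 4.27 on the 9 arrays. The moderated SD of the 18 genes had a median of 0.0986, beside 0.123 over all genes, and 9 of the 18 listed an identical value on 2 or more arrays. All 9 measured luminal markers lay above the median of all genes, with KRT18 brightest at a mean of 12.1. Their summed log2 level was 89.2 to 90.0 on the mimic arrays, against 87.6 to 88.8 on the control arrays. Against the mean of both controls 6 of the 9 had positive and 3 had negative log2 changes. In limma's test 2 of them, ESR1 and PGR, rose against that mean, as did 0.504% of all genes. Both also rose against the negative control and against mock, as did 0.202% and 0.168% of all genes. CA12, which fell, and SIAH2, which rose, are both known as estrogen-induced genes of breast cancer cells. The part of the estrogen receptor in their values was not tested. Of the markers of other cell types, 4 of fibroblasts and 5 of endothelium lay below the median of all genes, and of 3 of leukocytes only CD68 lay above it. The 5 measured of 7 endothelial markers had positive log2 changes against both controls. Over all genes, 46.6% of the changes were negative against the negative control and 46.2% against mock. The summed log2 level of the 5 markers was 18.3 to 19.0 on the mimic arrays, against 17.3 to 18 on the control arrays. Against the mean of both controls their log2 changes lay between 0.018 (VWF) and 0.53 (PECAM1), at levels where a low level cannot be separated from background. A link between these markers and the values of EPAS1, which endothelium also expresses, was not tested. The RefSeq table names 65 pseudogenes after GAPDH, 46 after BNIP3 and 13 after PGAM1. The probe sequences were not used here, so how far such copies add to these probesets was not tested. In a whole culture, fewer cells expressing a gene and less RNA per cell cannot be told apart.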

How the data were processed

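Total RNA of transfected ZR-75-1 cultures was read on 9 Human Gene 2.0 ST arrays (Affymetrix), 3 per group. The deposited table holds 1 log2 value per probeset and array, which the authors made with RMA, per the submitters' processing notes. The version of RMA was not given in the sources used here, nor was the build behind the probesets. RMA pulls arrays to a common distribution, so a shift of all genes would not be seen.

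Of 53617 probesets, 16098 carry a gene symbol in the platform's annotation table. The brightest probeset was kept per gene, which gave 14884 genes. The values were fitted in R 4.3.3 with limma 3.58.1 (lmFit, eBayes), 1 mean per group over all 9 arrays with 6 residual degrees of freedom, and p-values were adjusted by Benjamini-Hochberg over all genes at a threshold of 0.05. The 4 contrasts were mimic against negative control, mock and the mean of both, and negative control against mock. With 3 arrays a side, the smallest p of an exact permutation test is 0.1. The fit was tested on simulated data. The array table gives no detection calls, and precision is limited by how many arrays there are.

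The genes and the lists were chosen with earlier results of these data known. Array values were given in full for KDM3A and for the gene with the lowest p of each class in either mimic comparison (HK2, TPI1, LDHB and EGLN1); the array values of other genes were shown after they were seen. Called genes of further lists, or those with the lowest p, were named. Alternatives were leaving out each array, the replicate number as a block, only the groups compared, brighter genes only, the mean of a gene's probesets, every probeset, quantile normalization, and a trended robust variance. Motifs were searched in RefSeq start windows of GRCh38.p14, taking the outermost start of each gene.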

Additional observations from a re-analysis of the deposited data

How the results depend on the processing

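Over the 16 alternatives (15 against the mean of both controls), EGLN1, EPAS1, KDM3A, HK2 and TPI1 kept the sign of each mimic comparison, as did LDHB in the 15 (14) that tested it. Over all 18 genes, 12 kept their sign against the negative control, 12 against mock and 13 against the mean of both. The count of genes of the set that passed was 0 with these exceptions: it was 1 against the negative control, EGLN1, with only genes above the median tested, and 3 against the mean of both controls, where fewer genes were tested. Leaving out 1 array gave 0 to 1 against the negative control. The calls over all genes moved far more, from 6 (every probeset tested) to 263 (brighter genes only) against the negative control, beside 82, from 1 to 102 against mock, beside 45, and from 22 to 348 against the mean of both, beside 163.

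Quantile normalization moved the median of the 18 genes to -0.049 against mock, from -0.0078, and to 0.012 for negative control against mock, from 0.036. It moved the median of the glycolytic enzymes to -0.047 against mock and -0.027 against the mean of both, from 0.0046 and 0.015. The cause was not tested. Leaving out single arrays spread the median of the 18 genes over -0.073 to -0.024 against the negative control, -0.056 to 0.0088 against mock, -0.076 to -0.0044 against the mean of both and 0.00062 to 0.036 for negative control against mock. For the glycolytic enzymes these ranges were -0.052 to 0.041, -0.066 to 0.062, -0.062 to 0.072 and -0.031 to 0.024. For the HIF-induced genes they were -0.071 to 0.033, -0.051 to 0.061, -0.051 to 0.046 and -0.021 to 0.055. The median of the 3 oxygen-sensing genes EPAS1, EGLN1 and EGLN3 against mock ranged from -0.45 to -0.25.

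With the replicate number as a replicate block, 0 of the 18 genes passed in any comparison, and 16 genes passed over all against the negative control. Deviations of same-numbered mimic and negative control arrays correlated at 0.106, 0.0265 and 0.0589. Over all pairs of groups the same-numbered arrays ranged from -0.061 to 0.133, and the differently numbered ones from -0.177 to 0.161. These ranges overlap, so whether the numbers pair the arrays is not settled. CA12 and SIAH2 also lost their calls under the block (adjusted p = 0.0606 and 0.0629 against the mean of both).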
